A study of Mus musculus with 8 samples.

Results

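The genes described here are the myeloid C-type lectin pattern receptors of the mouse, named as a list of 10: Clec4d, Clec4e, Clec4n, Clec7a, Clec5a, Clec12a, Clec4a1, Clec4a2, Clec4a3 and Clec10a. The list goes by gene name, as receptors of this kind that myeloid cells carry, and its rule uses no measured value. A total of 21755 genes had a row in at least 1 of the 8 count tables, and 9 of the 10 receptors had a row in all 8. Clec7a was not analysed here.

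The study sequenced RNA of single CD45+ cells, that is leukocytes, from full-thickness wounds in the dorsal skin of male C57BL/6J mice. The diabetic group had received streptozotocin (STZ, a toxin of pancreatic beta cells) at 120 mg/kg after fasting at 4 weeks of age and counted as diabetic from a blood glucose of 16.5 mmol/L, and the control group carried the same wounds without diabetes. Both groups shared the strain, the sex, the wound and the sort for CD45. Wounds were taken 1, 3, 5 and 7 days after wounding, with 1 library per group and day, and each library pooled the wounds of 5 mice, so the spread between mice is not in these data and no single day has a replicate. The sample titles call all 8 libraries CD45+, while another label field counts upwards from CD45+ to CD52+ down the list; the titles were followed.

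The tables held 38959 cell barcodes, of which 35158 passed the limits of more than 200 genes and less than 20% mitochondrial counts, with 3266 to 5436 cells and 19236522 to 33842509 counted molecules (unique molecular identifiers, UMIs) per library. Clusters of cells were drawn without the receptor genes and were named from fixed markers; every neutrophil, monocyte, dendritic and T cell marker was higher in its own class than in the remaining cells in each of the 8 libraries, and Gpnmb was the macrophage marker that missed this, in 6 of 8. The control library of day 5 stood apart: 28.6% of its barcodes were removed, 27.1% for mitochondrial counts, against 1 to 10.8% removed elsewhere, and its cells had a median of 8234 UMIs, against 2575 to 5219 in the other libraries. One shallow cluster of 4044 cells (median 903.5 UMIs) stayed unnamed, with 9.71, 11.3, 8.34 and 8.89% of the diabetic cells on days 1, 3, 5 and 7 and 5.17, 21.1, 25.9 and 4.38% of the control cells.

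C-type lectin receptors are surface proteins whose carbohydrate recognition domain binds sugars and lipids of microbes or molecules set free by damaged cells. The activating members measured here signal through an adaptor that carries an activation motif: Clec4e (Mincle), Clec4d (MCL or Dectin-3) and Clec4n (Dectin-2) with Fcer1g, and Clec5a (MDL-1) with Tyrobp or Hcst. Fcer1g and Tyrobp recruit the kinase Syk, which signals through Card9, Bcl10 and Malt1 to cytokine genes such as Tnf, Il1b and Cxcl2. Clec12a (MICL) and Clec4a2 (DCIR) carry an inhibitory motif that recruits phosphatases instead, and Clec10a (MGL1) binds galactose-type sugars.

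In the mouse genome (GRCm38, GENCODE vM21 annotation) 6 of the 9 receptor genes form 1 cluster within 368 kb of chromosome 6, chr6:122921848-123289870. In order these are Clec4a1 (chr6:122921848-122934619), Clec4a3 (chr6:122952515-122969875), Clec4a2 (chr6:123106428-123143999), Clec4n (chr6:123229843-123247021) and Clec4d (chr6:123262111-123275265) on the plus strand and Clec4e (chr6:123281789-123289870) on the minus strand. Clec12a (chr6:129342691-129365303, plus strand) and Clec5a (chr6:40574894-40585821, minus strand) lie elsewhere on chromosome 6, and Clec10a lies on chromosome 11 (chr11:70156197-70170834, plus strand). All 9 are annotated as protein coding. Clec4a1, Clec4a2 and Clec4a3 are near copies of one another, so reads could be shared between them and their separate counts are less certain than those of the other genes.

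The promoters of Clec4d, Clec4e and Clec5a are shown because these 3 genes had their highest median in neutrophil-like cells and fell together over the days. Each run holds 250 bases before and 50 after the start of the RefSeq gene (GRCm38.p6), 5′ to 3′ on the strand of the gene: chr6:123261857-123262156 for Clec4d, chr6:123289822-123290121 for Clec4e and chr6:40585756-40586055 for Clec5a. Capitals mark GAGGAA, a core of sites for the myeloid factor PU.1, or TTNNGCAA, a form of the C/EBP site, both searched on either strand.
Clec4d: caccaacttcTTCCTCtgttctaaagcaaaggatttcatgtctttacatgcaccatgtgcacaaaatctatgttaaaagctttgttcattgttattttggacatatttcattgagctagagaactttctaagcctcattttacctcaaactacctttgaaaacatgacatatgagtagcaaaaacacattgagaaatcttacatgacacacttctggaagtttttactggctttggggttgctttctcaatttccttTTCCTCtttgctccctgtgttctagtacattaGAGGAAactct
Clec4e: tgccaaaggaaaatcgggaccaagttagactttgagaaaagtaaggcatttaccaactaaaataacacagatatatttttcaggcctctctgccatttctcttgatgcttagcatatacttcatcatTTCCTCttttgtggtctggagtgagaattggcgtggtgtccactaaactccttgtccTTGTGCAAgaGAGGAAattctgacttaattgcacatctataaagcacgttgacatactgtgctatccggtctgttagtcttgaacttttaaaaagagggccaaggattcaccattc
Clec5a: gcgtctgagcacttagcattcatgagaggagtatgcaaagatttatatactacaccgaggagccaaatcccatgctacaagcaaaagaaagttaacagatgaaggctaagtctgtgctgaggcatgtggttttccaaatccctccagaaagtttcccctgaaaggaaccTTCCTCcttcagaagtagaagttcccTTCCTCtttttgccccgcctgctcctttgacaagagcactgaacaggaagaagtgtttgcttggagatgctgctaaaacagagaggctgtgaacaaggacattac
Clec4d held 3 matches to GAGGAA, Clec5a 2, and Clec4e 2 with 1 match to TTNNGCAA that did not overlap them. Over the 7 receptor genes with a window (8 windows), 6 windows held GAGGAA and 2 held TTNNGCAA, beside 28.3% and 10.8% of all 32851 windows of this length. A loose form of the NF-kB site stood in 1 of the 8 windows and in 50.8% of all windows. A match is only a run of letters.

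Levels are given as CPM, the UMI count of a gene scaled to a total of 1000000 UMIs in the cells concerned. A UMI counts 1 molecule whatever its length, so levels were not divided by gene length. In the cells of a whole library Clec4e and Clec4d were far above the other 7 receptors, with medians over the 8 libraries of 2987 and 1664 CPM, and the other medians lay between 77.5 (Clec12a) and 256 (Clec4a1). Because the sample is a mixture, fewer cells of a type and less RNA per cell cannot be told apart in these whole-library values.

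The pathogen-sensing pair led on day 1 and was lower later. In diabetic wounds Clec4e stood at 4906, 3830.4, 3740.5 and 1751 CPM on days 1, 3, 5 and 7, and in control wounds at 5533, 2234, 818 and 1066. Clec4d stood at 3098, 1911, 2004 and 835 in diabetic and at 3156, 1416, 656 and 873 in control wounds. Both genes were highest in the 2 day 1 libraries; the diabetic libraries of days 3 and 5 lay between these and the later control libraries, and control day 5 was the lowest of all 8. Clec5a, the myeloid receptor that uses Tyrobp or Hcst, was likewise highest on day 1, at a lower level, with 225, 117, 131 and 59.3 CPM in diabetic and 242, 68.1, 63.3 and 49.7 in control wounds.

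The remaining receptors did not share this course. Clec4n, the receptor for fungal mannans, stood at 196, 236, 306 and 194 CPM in diabetic and 205, 216, 383 and 261 in control wounds, so its highest value was the control library of day 5, where Clec4e was lowest. The inhibitory receptor Clec12a measured 52.9, 96.0, 59.1 and 57.0 in diabetic and 53.6, 133, 232 and 114 in control wounds. On days 3, 5 and 7 each control library was above the diabetic library of its day for Clec12a, and on day 1 the values were almost equal.

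Within the Clec4a group the control library of day 5 was again the highest. Clec4a1 measured 215, 228, 188 and 313 CPM in diabetic and 183, 285, 396 and 374 in control wounds. Clec4a2, the inhibitory receptor of the group, measured 264, 233, 169 and 143 in diabetic and 247, 239, 401 and 243 in control wounds. For Clec4a3 the diabetic values were 129, 186, 159 and 203 and the control values 128, 226, 336 and 265. For these 3 genes the groups overlapped over the days. Clec10a started lowest of all, at 41.2, 139, 82.1 and 165 in diabetic and 22.0, 97.1, 158 and 151 in control wounds, and was lower on day 1 than on any later day in both groups.

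**Figure D1:**
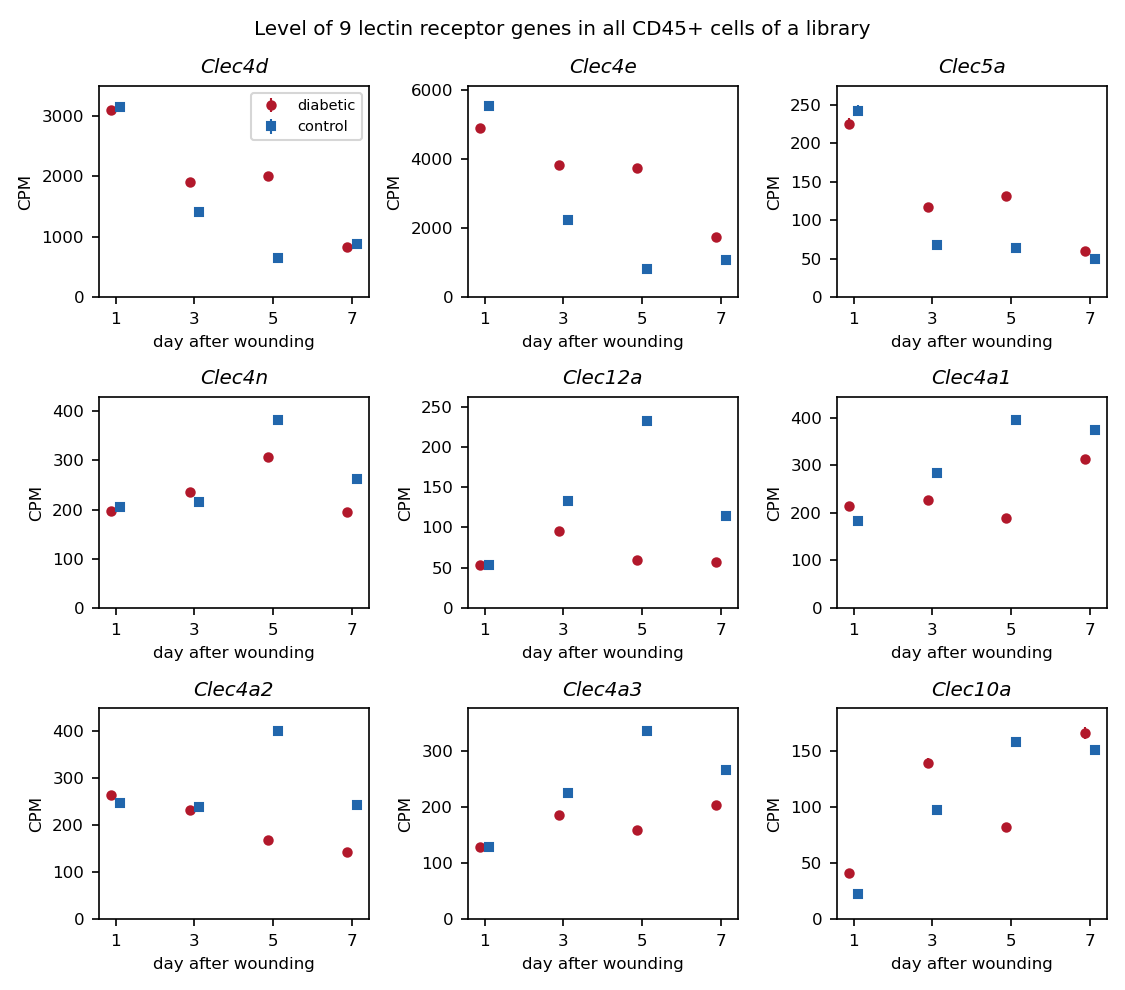
CPM of each of 9 receptor genes in all cells kept of a library (vertical axes, each starting at 0) against the day after wounding, with circles for diabetic and squares for control wounds, 1 library per point and exact Poisson 95% intervals of the counts as bars. Clec4d, Clec4e and Clec5a were highest on day 1 in both groups, and Clec12a and Clec4n reached their highest values in the control library of day 5.

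The classes of cells held these receptors at very different levels. Clusters were drawn from the same cells, so the differences between classes are described without a test. Clec4e was highest in neutrophil-like cells, with a median over libraries of 6476 CPM (range 2539 to 8705), ahead of monocyte-like cells at 3792 (1973 to 4530.5), macrophage-like cells at 1471 (751 to 2121), dendritic-like cells at 834 (401 to 1151) and T cell-like cells at 590.0 (360.0 to 1316). Among these 5 classes the ranges of neighbours overlapped. Clec4d was held more narrowly: the neutrophil-like range of 2440.4 to 5832 (median 4562) lay wholly above the monocyte-like range of 629 to 1876 (1519.9), and the macrophage-like median was 742.

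Clec5a was also led by neutrophil-like cells, at a median of 209 CPM (90.8 to 479.7), over 91.7 in monocyte-like and 65.7 in macrophage-like cells. Clec4n had nearly the same median in monocyte-like (333, 193 to 519) and neutrophil-like cells (329, 159.7 to 434), and which of them came first changed with the clustering. In macrophage-like cells Clec4n had the widest range of the 3 classes, 78.7 to 517 around a median of 231.

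The Clec4a receptors belonged to the mononuclear side. Orders are among named classes; the shallow unnamed cluster had medians of 387 for Clec4a1, 339.8 for Clec4a2, 323 for Clec4a3 and 142 for Clec12a, each above the monocyte-like median. Clec4a1 was led by macrophage-like cells at a median of 454 CPM (349 to 539.6) and followed by monocyte-like cells at 348 (313 to 419). Clec4a3 had the same order at 336 and 238. For Clec4a2 the small osteoclast-like class, which had 20 or more cells in 4 libraries only, stood first at 479.6 (420.3 to 515), and the macrophage-like cells at 392 (223 to 483) overlapped it.

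Clec12a was likewise highest in the osteoclast-like cells, a class led by Ctsk, Atp6v0d2 and Acp5. There it reached 365 CPM in the diabetic library of day 3 and 448, 442 and 284 in the control libraries of days 3, 5 and 7, all above the highest value in macrophage-like cells (194). The macrophage-like median was 139, the monocyte-like 81.1 and the neutrophil-like 51.8. The dendritic-like median was 41.4 and the T cell-like 25.2.

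Clec10a was found on both the dendritic and the macrophage side. Dendritic-like and macrophage-like cells had nearly equal medians, 232 (87.9 to 280.1) and 231 (122 to 837) CPM. Among macrophages 1 cluster of 838 cells, led by Ccl8, Retnla and Lyve1, had a median of 1136 over 5 libraries (586 to 1642). The cluster of 3160 cells led by Igf1 and Gdf15 had 130.1 over 6 libraries (48.7 to 210.0), and the type marked by Gpnmb 99.8. The first 2 of these clusters scored as the type marked by Mrc1 and are pooled below under that name. Among dendritic cells the Cd209a type had 269 and the Ccr7 type 39.3. Mast cell-like cells held the highest median of all classes, 432, from 23 to 25 cells in each of 4 libraries, and their values ran from 129.7 to 1069.

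**Figure D2:**
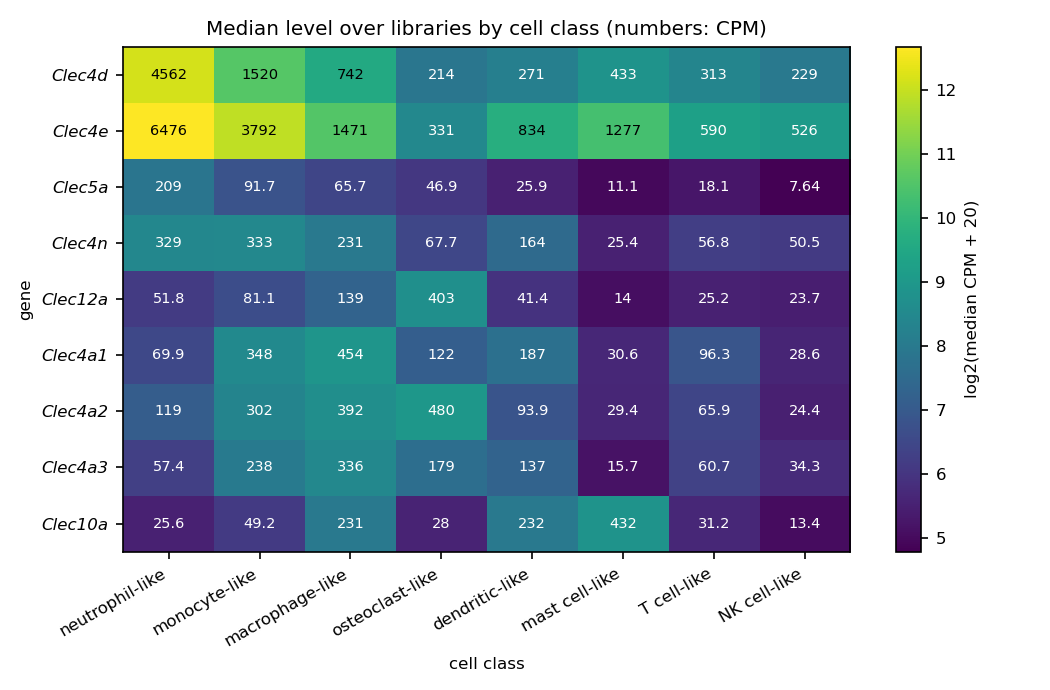
Median level over libraries of each receptor gene (vertical axis) in each cell class (horizontal axis), with colour as log2(CPM + 20) and the median in CPM printed in each field; only libraries with at least 20 cells of a class were used. Clec4d, Clec4e and Clec5a peak in neutrophil-like cells and Clec4a1 and Clec4a3 in macrophage-like cells.

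Where the molecules of a gene were found depends on its level in a class and on the UMIs the class holds. Neutrophil-like cells held a median over libraries of 67.3% of the Clec4d UMIs (14.6 to 75.5%). For Clec4e it was 54.3% (17.1 to 64.5%) and for Clec5a 53.2% (7.14 to 78.5%). For Clec4n the share was 31.1%, and it was 14.2% for Clec12a and 5.03% for Clec10a. The lowest shares of Clec4d, Clec4e and Clec5a were in the control library of day 5. There macrophage-like cells held more, 64.7, 51.3 and 59.7%. As medians over libraries, macrophage-like cells held 41.2% of Clec4a1, 38.9% of Clec4a2, 39.9% of Clec4a3, 44.2% of Clec10a and 34.4% of Clec12a.

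Counted as cells, the pair of Clec4e and Clec4d was almost universal in neutrophil-like cells. With every cell thinned to 1000 UMIs (31538 cells, 3620 shallower cells left out), 95.6% of neutrophil-like cells had a Clec4d UMI (exact binomial 95% interval 95.2 to 95.9%) and 95.3% a Clec4e UMI. Clec4e was found in 89.3% of monocyte-like cells. T cell-like cells, which should lack both, still had a Clec4e UMI in 37.7% and a Clec4d UMI in 19.5% of cells, at median depths of 4064 UMIs against 2536 in neutrophil-like cells before thinning. That share was taken as the background of free RNA, and lower shares of these genes elsewhere are not read as expression.

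The same background was lower for the scarcer receptors. T cell-like cells had a UMI of Clec5a in 1.30%, of Clec12a in 2.03%, of Clec10a in 2.72%, of Clec4a2 in 4.41% and of Clec4a1 in 7.09% of cells. Against this, Clec5a was found in 21.1% of neutrophil-like cells, Clec12a in 32.4% and Clec4a2 in 33.7% of osteoclast-like cells, and Clec4a1 in 34.8% of macrophage-like cells. Clec10a was found in 14.5% of macrophage-like, 16.7% of dendritic-like and 19.6% of mast cell-like cells.

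The first comparison over libraries asked whether a receptor changed over the days in both groups together. It was fitted for all genes with edgeR's quasi-likelihood test on summed UMI counts, with the group as a block and Benjamini-Hochberg adjustment at 0.05, and the slope is the log2 change per day. As wounds of 5 mice were pooled in a library, p-values measure only the spread between these libraries. In all cells 3 of 9 receptors fell and 0 rose, against 6.88% of all 13332 genes tested that fell: the slopes were -0.38 ± 0.07 for Clec4d (SE, n = 8 libraries; edgeR adjusted p = 0.0260), -0.41 ± 0.08 for Clec4e (adjusted p = 0.0290) and -0.41 ± 0.07 for Clec5a (adjusted p = 0.0239). The median slope was -0.02 over the 9 receptors and 0.02 over all genes.

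These 3 calls rest on the ends of the course. Leaving out any 1 of the diabetic day 1, diabetic day 7, control day 1 or control day 7 libraries left 0 receptors past the threshold, with 11, 3, 1 and 235 genes called of all, and the slopes stayed negative. With 1 day left out at a time they ran from -0.46 to -0.26 for Clec4d, -0.49 to -0.31 for Clec4e and -0.45 to -0.21 for Clec5a. On days 1, 3, 5 and 7 the neutrophil-like share was 51.4, 49.2, 45.8 and 20.9% of the diabetic cells and 60.0, 41.4, 7.96 and 22.8% of the control cells. The class with the highest median share of these transcripts was thus smaller on day 7 than on day 1 in both groups. The part of this in the slopes was not tested in all cells; the slopes within the class follow. Of the 6 receptors that did not pass, Clec10a came nearest with a slope of 0.26 ± 0.09 (adjusted p = 0.0826), and Clec4a2 followed at -0.14 ± 0.05 (0.0967). With 1 day left out at a time these ran from 0.06 to 0.39 and from -0.15 to -0.09. Clec10a passed without the day 3 libraries or without the diabetic day 3 library, with 1117 and 1345 genes called of all. Clec4a2 passed without the control day 5 library, with 1621 genes called of all.

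Within neutrophil-like cells the same 3 receptors fell as well. Clec5a stood at 479.7, 262, 265 and 156 CPM on days 1, 3, 5 and 7 in diabetic and at 475, 144, 140.2 and 90.8 in control wounds, and its slope was -0.48 ± 0.07 per day (edgeR adjusted p = 0.000466). Clec4d stood at 5738, 4535, 4964 and 2690.4 in diabetic and 5832, 4588, 2977 and 2440.4 in control wounds, with a slope of -0.35 ± 0.07 (adjusted p = 0.00183). Both genes were lowest on day 7 in both groups. Clec4e stood at 6769, 7889.8, 8253 and 4859 in diabetic and 8705, 6184, 4342 and 2539 in control wounds, with a slope of -0.35 ± 0.08 (0.00442), and in the diabetic group its values on days 3 and 5 were above that of day 1. In these cells 20.4% of all 10138 genes tested fell and 22.4% rose, so a call was common. The 7 neutrophil markers were also lower in sum on each later day, at 61074, 31558, 25134 and 14928 CPM in diabetic and 48560.5, 35189, 17475 and 14612 in control wounds; what part this has in the slopes was not tested.

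The types of neutrophil differed in these genes and in their shares over the days. Clec5a had a median of 403 CPM (159 to 566) in the type marked by Retnlg and 259 (116 to 527) in that marked by Acod1. It was 149 in the type marked by Cxcr2. Clec4e was highest in the Acod1 type at 9274, over 6229 and 5141. The Retnlg medians are from 5 libraries, diabetic days 1, 3 and 5 and control days 1 and 3, and the others from 8. None of the 5 is of day 7, so type and day cannot be told apart in the Retnlg medians. The Retnlg type made up 35.8, 10.8, 8.93 and 0.394% of the diabetic neutrophil-like cells on days 1, 3, 5 and 7 and 25.8, 1.81, 0.385 and 0.0943% of the control ones. The Acod1 type made up 36.5, 50.6, 64.3 and 45.6% in diabetic and 54.0, 20.3, 31.2 and 9.53% in control wounds. For the Cxcr2 type it was 10.2, 32.2, 21.1 and 51.1% in diabetic and 6.84, 74.1, 65.0 and 88.6% in control wounds, so from day 3 the groups held different types in this class. Within the Cxcr2 type Clec4e stood at 5989.5, 5828, 5175 and 4944 in diabetic and 6835, 5107, 3944 and 2503 in control wounds. The part of the type shares in the slopes of the class was not tested.

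A further 4 receptors rose in neutrophil-like cells: Clec10a by 0.41 ± 0.10 per day (edgeR adjusted p = 0.00610), Clec4a1 by 0.32 ± 0.05 (0.00102), Clec4a3 by 0.31 ± 0.05 (0.000998) and Clec12a by 0.15 ± 0.05 (0.0450). Clec4a1 measured 43.1, 65.3, 64.9 and 269 CPM in diabetic and 30.5, 74.4, 254 and 285 in control wounds. Clec10a measured 3.45, 35.0, 14.1 and 59.0 in diabetic and 3.19, 16.3, 43.2 and 60.0 in control wounds. Both genes were at their lowest on day 1 and at their highest on day 7 in each group. Clec4a3 measured 26.9, 54.3, 45.5 and 205 in diabetic and 27.7, 60.5, 188 and 197 in control wounds. All 8 macrophage markers of the fixed list were detected in the neutrophil-like cells of every library, and their sum moved with these receptors: 387, 2701, 1782 and 9630.2 CPM in diabetic and 642, 1906, 7958 and 10279.6 in control wounds. The part of this macrophage RNA in the rise was not tested. The same 8 markers summed to 1006, 4141, 1342 and 3516 in diabetic and 1098, 1669, 8855 and 5984 in control T cell-like cells. Clec4n and Clec4a2 did not pass, with slopes of -0.0038 ± 0.06 (adjusted p = 0.961) and 0.03 ± 0.05 (0.633).

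Without the libraries of day 7, 0 of the 9 receptors passed in neutrophil-like cells and 101 genes were called of all, and without those of day 1 the calls that remained were Clec4e, Clec5a, Clec4a1 and Clec4a3, with 10.8% of all genes called. With 1 day left out at a time the slopes ran from -0.37 to -0.31 for Clec4d, -0.39 to -0.26 for Clec4e, 0.29 to 0.37 for Clec4a1 and 0.28 to 0.33 for Clec4a3. Those of Clec5a ran from -0.52 to -0.31, of Clec10a from 0.18 to 0.55 and of Clec12a from 0.02 to 0.24, all 3 nearest to 0 without day 1. The call of Clec12a held in 11 of 22 alternatives. It was also lost with RLE size factors, with the receptors kept among the variable genes, without the day 5 libraries and without any 1 of the diabetic day 1, diabetic day 7, control day 1, control day 5 or control day 7 libraries, and the other 6 receptors passed in each of those fits. When each cell was named on its own from its marker scores, Clec5a, Clec10a and Clec4a3 still passed, with 695 of 8259 genes called of all. In that fit Clec4d (-0.13, edgeR adjusted p = 0.0731), Clec4e (-0.15, 0.0702), Clec4a1 (0.17, 0.0650) and Clec12a (0.07, 0.488) did not pass.

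**Figure D3:**
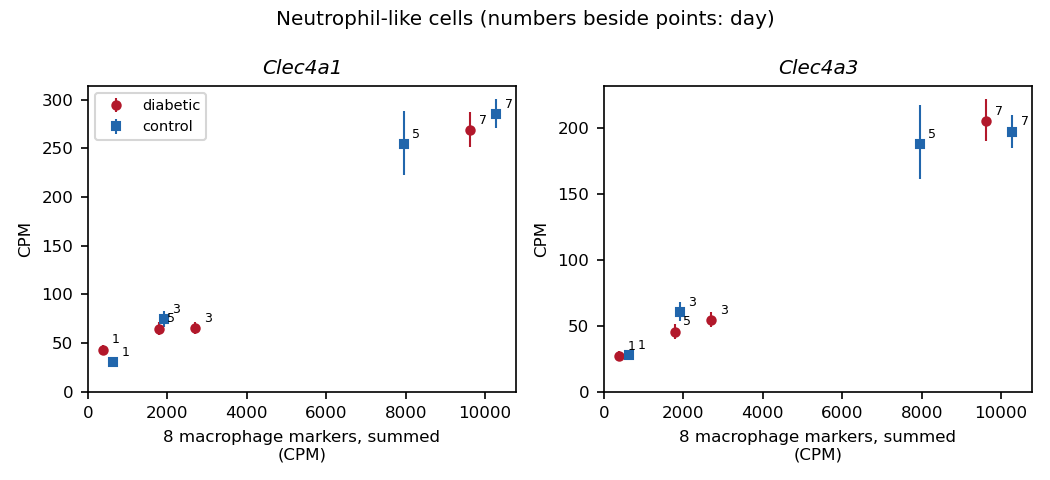
Clec4a1 (left) and Clec4a3 (right) in neutrophil-like cells (vertical axes, CPM, exact Poisson 95% intervals) against the summed level of 8 macrophage markers in the same cells (horizontal axes, CPM), 1 point per library with its day beside it, circles for diabetic and squares for control wounds. The libraries with the highest marker sums, control days 5 and 7 and diabetic day 7, also had the highest Clec4a1 and Clec4a3 values.

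Monocyte-, macrophage- and dendritic-like cells gave no receptor past the threshold over the days. The share of all genes called was 0.612%, 1.06% and 0.345%, and 3, 4 and 4 of the 9 receptors had an unadjusted p under 0.05, beside 13.2, 10.7 and 11.7% of all genes. The nearest was Clec10a in monocyte-like cells, 15.7, 52.7, 35.2 and 80.4 CPM in diabetic and 18.7, 45.7, 108 and 92.7 in control wounds. Its slope was 0.36 ± 0.07 (edgeR adjusted p = 0.0550), which DESeq2 called, with 278 genes called of all. With 1 day left out at a time this slope ran from 0.21 to 0.46. By edgeR it passed without the day 3 libraries, the day 5 libraries or the control day 5 library, with 225, 56 and 90 genes called of all. The 8 macrophage markers summed to 3042, 8007, 4987 and 6552 CPM in the same diabetic and 4278, 5113, 9699 and 9173 in the same control cells, and their part in this slope was not tested. Clec4e had slopes of -0.13 ± 0.04 in macrophage-like (edgeR adjusted p = 0.140) and -0.16 ± 0.04 in dendritic-like cells (0.0970). With 1 day left out at a time these ran from -0.22 to -0.05 and from -0.17 to -0.14. DESeq2 called the dendritic-like slope, with 154 genes called of all, and 0 receptors in macrophage-like cells, with 205 genes called. Clec10a was at 837, 315, 132 and 253 in diabetic and 245, 122, 217 and 187 in control macrophage-like cells, and this class changed in its make-up: the Gpnmb type held 68.8 to 79.2% of it on days 1 to 5, and the Mrc1 type 93.8% and 97.9% on day 7. Inside the Mrc1 type Clec10a stood at 1666, 1198, 570.4 and 259 in diabetic and 852, 379, 892 and 190.2 in control wounds. These values rest on 26, 188, 73 and 916 diabetic and 26, 116, 391 and 2262 control cells. As this type pools the 2 clusters with medians of 1136 and 130.1, its course can move with their mix, which was not tested.

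The partners of the receptors were followed with a list of 16 signalling genes. In all cells 7 of 16 fell over the days and 0 rose, against 6.88% of all genes that fell, led by Syk (-0.19 per day, edgeR adjusted p = 0.0370), Bcl10 (-0.16, 0.0260), Vav3 (-0.16, 0.0337) and the adaptor Tyrobp (-0.16, 0.0360). In neutrophil-like cells 13 of 16 fell, against 20.4% of all genes, among them the adaptor Hcst (-0.30, 0.00173), Card9 (-0.29, 0.0179), Malt1 (-0.28, 0.00688) and Bcl10 (-0.23, 0.00123), and the kinase Src rose (0.24, 0.00700). The median slope of the 16 was -0.12 in all cells and -0.19 in neutrophil-like cells, beside 0.02 over all genes in each. In monocyte-like cells 1 of 16 was called, Src, which rose by 0.33 (0.0306), beside 0.459% of all genes that rose.

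Of 14 target genes, known to be induced through these receptors and through other pathways, 7 fell in all cells, against 6.88% of all genes, led by Il1a (-0.57 per day, edgeR adjusted p = 0.0340), Il1b (-0.38, 0.0328), Cxcl2 (-0.36, 0.0312) and Tnf (-0.35, 0.0270). In neutrophil-like cells 8 of the 12 that could be tested fell, against 20.4% of all genes, with Il1a (-0.65) and Il23a (-0.54) the steepest. Il23a, Il1a and Tnf also led a cluster of the Acod1 type, whose share of these cells changed over the days as given above. The part of this in the slopes was not tested. Of 14 related lectin genes 0 passed in all cells and 3 had an unadjusted p under 0.05, beside 31.2% of all genes. Among the 10 tested in neutrophil-like cells Mrc1 (0.40) and Clec4b1 (0.36) rose and Clec2d (-0.17) fell, beside 22.4% of all genes that rose and 20.4% that fell. Mrc1 is itself one of the 8 macrophage markers. These list counts rest on the ends of the course as well: without the libraries of day 1, or without those of day 7, 0 signalling and 0 target genes passed in all cells, with 0 and 1 genes called of all. In neutrophil-like cells 1 of 16 signalling and 4 of 12 target genes fell without day 1, beside 6.33% of all genes, and 0 of either without day 7, beside 0.632%.

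The second comparison, of diabetic with control wounds with the day as a block (4 libraries per group), addressed how the immune cells of diabetic wounds differ. No receptor passed the threshold in any of 5 populations of cells. By edgeR 0% of all genes were called in all cells and in monocyte-like cells, 0.0279% in neutrophil-like, 0.0364% in macrophage-like and 0.0100% in dendritic-like cells, so hardly any gene of any kind was called. In all cells 1518 of 13857 genes had an unadjusted p under 0.05 and DESeq2 called 87, none of them a receptor. At an unadjusted p under 0.05 stood 1 receptor in all cells, 2 in neutrophil-like, 3 in monocyte-like, 3 in macrophage-like and 4 in dendritic-like cells, beside 11, 8.92, 6.72, 9.27 and 6.11% of all genes. For the signalling, related lectin and target lists 0 of 197 tests over the 5 populations passed by edgeR, 32 had an unadjusted p under 0.05 and DESeq2 called 4.

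The 5 populations come from the same 8 libraries and are not independent, and like signs over all genes were not counted. Clec4e had the same sign in all 5. In all cells its difference was 0.90 ± 0.42 on the log2 scale (edgeR adjusted p = 0.462), and in neutrophil-like cells it was 0.60 ± 0.37 (0.653). Without the day 5 libraries these were 0.44 and 0.28, and without the day 1 libraries 1.28 and 0.97. The share of the Acod1 type, given above, was larger in the diabetic libraries of days 3, 5 and 7, and its part in the difference was not tested. In monocyte-like cells Clec4e stood at 4530.5, 3868, 3841 and 3743 CPM in diabetic and 3862, 1973, 2729 and 2596 in control wounds, a difference of 0.61 ± 0.14 (edgeR adjusted p = 0.392). The diabetic library was the higher one on each of the 4 days, though the groups overlapped, since control day 1 was above diabetic day 7. The 7 neutrophil markers summed to 3231, 2337, 1409 and 1017 CPM in these diabetic and 3064, 1395, 493 and 1178 in these control cells, higher in the diabetic library on days 1, 3 and 5 and lower on day 7, and their part in the difference was not tested.

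Macrophage-like cells showed Clec4e at 2121, 1679, 1508 and 1434 CPM in diabetic and 1942, 993, 751 and 903 in control wounds, a difference of 0.65 ± 0.14 (edgeR adjusted p = 0.170). Again the diabetic library was higher on all 4 days and the groups overlapped. All 7 neutrophil markers were detected in the macrophage-like cells of each library and summed to 3381, 2332, 1425 and 1151 CPM in these diabetic and 2862, 1460.4, 271 and 1468 in these control cells. The marker sum was thus higher in the diabetic library on days 1, 3 and 5 and lower on day 7, and its part in the Clec4e difference was not tested. DESeq2 called Clec4e in monocyte-, macrophage- and dendritic-like cells, and so did edgeR without a filter on low counts. DESeq2 called 21, 64 and 14 genes of all in these classes and edgeR without the filter 118, 198 and 121, against 0, 4 and 1 as reported. The difference was positive under each of 15 alternatives in all 3 classes. Without the day 5 libraries it was 0.63 in monocyte-like (adjusted p = 0.758) and 0.52 in macrophage-like cells (0.263).

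In dendritic-like cells Clec4e stood at 1102, 1151, 969 and 698 CPM in diabetic and 994, 480.0, 497 and 401 in control wounds, a difference of 0.78 ± 0.17 (edgeR adjusted p = 0.432). T cell-like cells, however, also held it, at 1311, 898, 643 and 537 in diabetic and 1316, 426, 448 and 360.0 in control wounds, and were likewise higher in the diabetic library on days 3, 5 and 7. At 1000 UMIs per cell 61.2, 58.2, 52.4 and 43.5% of diabetic and 55.1, 29.3, 28.9 and 30.8% of control dendritic-like cells had a Clec4e UMI, beside 51.9, 55.4, 43.2 and 40.0% and 51.5, 27.0, 20.5 and 28.4% of T cell-like cells. The dendritic-like level was below the T cell-like one on day 1 in both groups and above it in the other 6 libraries, most in the diabetic library of day 5. The neutrophil markers summed to 3706, 3291, 3025 and 2028 CPM in diabetic and 3619, 2535, 1611 and 2563 in control dendritic-like cells, and the part of free RNA in the difference was not tested. Monocyte-like and macrophage-like cells were above the T cell-like level in all 8 libraries.

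Clec12a ran the other way, also in dendritic-like cells. It stood there at 25.2, 36.9, 33.0 and 32.4 CPM in diabetic and 45.9, 74.5, 68.6 and 54.6 in control wounds, from 35 to 206 UMIs per library, and the groups did not overlap. The share of all genes without overlap was not counted, so this is not read as particular to Clec12a. The difference was -0.95 ± 0.15 (edgeR adjusted p = 0.221), which DESeq2 called, with 14 genes called of all. The 8 macrophage markers summed to 371, 1998, 990 and 3529 CPM in these diabetic and 447, 1257, 4546 and 5394 in these control cells. That sum was lower in the diabetic library on days 1, 5 and 7 and higher on day 3. The part of this sum and of free RNA in the Clec12a difference was not tested. T cell-like cells measured 30.4, 36.6, 17.9 and 14.3 in diabetic and 20.1, 17.5, 113 and 47.5 in control wounds, so the dendritic-like level was below this background in the diabetic library of day 1 and the control library of day 5 and equal to it in the diabetic library of day 3.

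In macrophage-like cells, where Clec12a was better covered, it stood at 62.1, 146, 149 and 92.4 CPM in diabetic and 89.9, 194, 192 and 131 in control wounds. The control library was higher on each day, the groups overlapped, and the difference was -0.44 ± 0.12 (edgeR adjusted p = 0.303). Neutrophil-like cells gave -0.54 ± 0.21 (0.494), all cells -0.83 ± 0.29 (0.451) and monocyte-like cells -0.26 ± 0.15 (0.772). In neutrophil-like cells the macrophage marker sum given above was lower in the diabetic library on days 1, 5 and 7 and higher on day 3. Its part in the difference was not tested. The sign of the Clec12a difference was negative in all 5 populations, which are not independent. Without the day 5 libraries the difference was -0.50 in all cells (adjusted p = 0.632), -0.47 in macrophage-like (0.388) and -0.90 in dendritic-like cells (0.286).

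**Figure D4:**
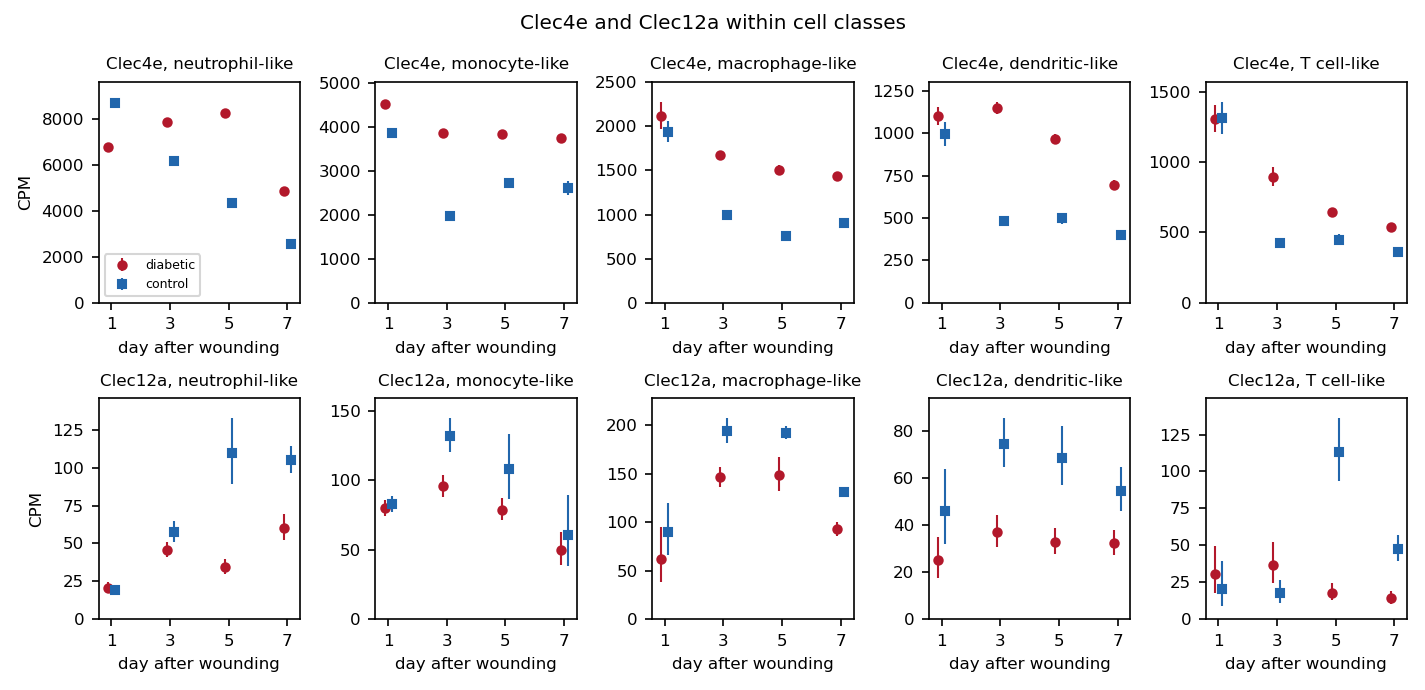
CPM of Clec4e (upper panels) and Clec12a (lower panels) within cell classes (vertical axes from 0) against the day after wounding, circles for diabetic and squares for control wounds, 1 library per point with exact Poisson 95% intervals. In macrophage-like cells the diabetic Clec4e points lie above and the diabetic Clec12a points below the control points of the same day on all 4 days.

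Of the other receptors, Clec5a differed by 0.76 ± 0.26 in neutrophil-like (edgeR adjusted p = 0.446) and 0.53 ± 0.17 in monocyte-like cells (0.567). In monocyte-like cells it stood at 89.9, 87.5, 154 and 154 CPM in diabetic and 93.5, 56.9, 101 and 82.7 in control wounds. Clec4d differed by 0.57 ± 0.17 in monocyte-like (edgeR adjusted p = 0.555) and 0.55 ± 0.18 in dendritic-like cells (0.721). The monocyte-like value was 0.33 without the day 3 libraries. The dendritic-like Clec4d median of 271 CPM (172 to 380) was below the T cell-like 313 (221 to 597), which was taken as background. The dendritic-like difference is therefore not read as expression. Clec10a differed by 0.70 ± 0.31 in macrophage-like cells (0.529), where the diabetic library was the higher one on days 1, 3 and 7 and the lower one on day 5. It ranged from 0.38 without the day 1 libraries to 1.15 without those of day 5. By edgeR without the filter on low counts it was called (0.68, adjusted p = 0.000263), and by DESeq2 it was not. The macrophage clusters differed widely in Clec10a, and the part of their mix in this difference was not tested. Clec4n differed by -0.13 ± 0.15 in all cells (0.711), and by -0.0022 without the day 7 libraries. Clec4a1, Clec4a2 and Clec4a3 differed by -0.32 ± 0.19, -0.45 ± 0.23 and -0.40 ± 0.17 in all cells, with adjusted p from 0.452 to 0.519. Without the day 5 libraries these were -0.11, -0.23 and -0.22.

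**Figure D5:**
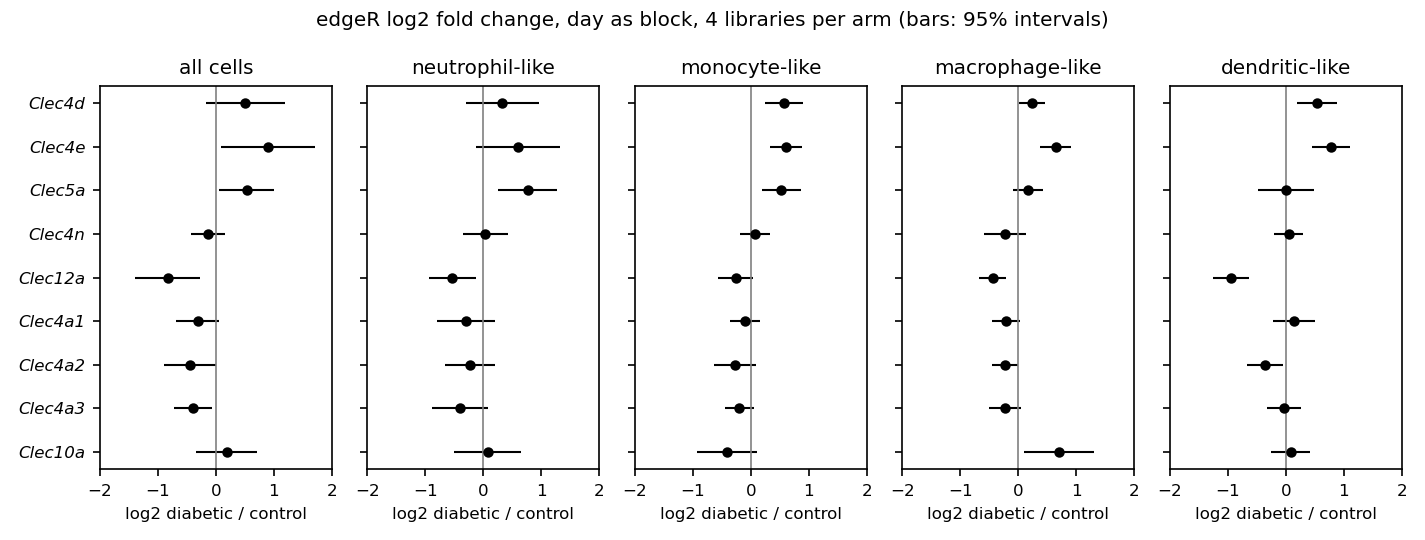
Log2 fold change of diabetic over control wounds for each receptor (vertical axes) in each population of cells (panels), from edgeR with the day as a block and 4 libraries per group; points are estimates, bars are 95% intervals (normal, not adjusted for the number of genes) and the grey line marks no difference. Clec4e lies to the right and Clec12a to the left of that line in every panel, and the panels share the same libraries. No receptor passed an adjusted p of 0.05.

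The last comparison of this kind asked whether the course over the days differed between the groups. The difference in slope, diabetic less control, gave 0 calls (0%) among 13857 genes by edgeR, 240 genes with an unadjusted p under 0.05 and 2 by DESeq2, and 0 receptors by any of these. For Clec4e it was 0.20 per day with a 95% interval from -0.11 to 0.50, and for Clec12a -0.25 with an interval from -0.55 to 0.05, and both intervals held 0. These values turned on single days: Clec4e ran from -0.05 without the day 1 libraries to 0.66 without those of day 7, and Clec12a from -0.16 without day 5 to -0.42 without day 7.

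On single days there are 2 libraries and no replicate, so ratios carry counting intervals only. On day 1 no receptor was 2-fold apart in all cells, against 2.73% of all genes, and on day 3 again none, against 6.78%. On day 5, when 27.2% of all genes were at least 2-fold apart, 3 receptors were higher in the diabetic library, Clec4e by 4.58-fold (95% interval 4.51 to 4.64), Clec4d by 3.05-fold and Clec5a by 2.07-fold (1.95 to 2.19). A further 4 were higher in the control library, Clec12a by 3.94-fold (3.71 to 4.18), Clec4a2 by 2.37-fold, Clec4a3 by 2.12-fold and Clec4a1 by 2.10-fold. On day 7 it was 1 receptor, Clec12a, 2.01-fold higher in the control library, against 8.25% of all genes.

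The day 5 libraries also differed most in their cells. Macrophage-like cells were 1.79, 13.4, 5.59 and 26.8% of the diabetic cells on days 1, 3, 5 and 7 and 2.47, 11.6, 44.5 and 49.6% of the control cells, and neutrophil-like cells 45.8% against 7.96% on day 5. To set the make-up by class aside, levels were weighted over the 5 classes with at least 20 cells in every library. These were neutrophil-, monocyte-, macrophage-, dendritic- and T cell-like cells. Their weights were the mean shares of the UMIs these classes held, 26.5, 24.1, 29.2, 13.1 and 7.16%. Types within a class were not weighted, so the different neutrophil types of the groups remain in these values. Osteoclast-like and unnamed cells and the other small classes are not in these values. At this equal make-up 1 of 36 ratios (9 receptors on 4 days) was 2-fold or more, against 8 of 36 as observed. The share of all genes was not counted at this weighting, so the change in the count is not read as particular to the receptors. Clec4e had ratios of diabetic over control of 0.929, 1.49, 1.75 and 1.67 on days 1, 3, 5 and 7, against 4.58 as observed on day 5. Clec5a had 0.976, 1.58, 1.55 and 1.58, Clec4d 1.06, 1.17, 1.47 and 1.10 and Clec12a 0.824, 0.743, 0.601 and 0.659. Those of Clec4n were 1.09, 1.04, 0.789 and 0.886, of Clec4a1 1.10, 0.798, 0.692 and 0.951, of Clec4a2 0.939, 0.969, 0.680 and 0.687 and of Clec4a3 0.792, 0.873, 0.753 and 0.921.

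Clec10a was the receptor past 2-fold at equal make-up, with 3.05, 1.67, 0.637 and 1.08. In macrophage-like cells its ratio of diabetic over control was 3.41 on day 1 (2.76 to 4.23), from 85 and 109 cells, and 2.58 on day 3 (2.35 to 2.84). It was 0.605 on day 5 (0.531 to 0.687) and 1.35 on day 7 (1.28 to 1.43). The cluster led by Ccl8, Retnla and Lyve1 had a Clec10a median of 1136 CPM, against 130.1 and 99.8 in the other macrophage clusters. These ratios can move with the mix of clusters, which was not tested. For Clec4e the ratios on days 1, 3, 5 and 7 were 0.778, 1.28, 1.90 and 1.91 in neutrophil-like, 1.17, 1.96, 1.41 and 1.44 in monocyte-like and 1.09, 1.69, 2.01 and 1.59 in macrophage-like cells, so the day 5 ratio in each class was smaller than the 4.58 of the whole library.

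Finally, the profiles of the receptors over classes and libraries were compared with those of 8720 genes, as Pearson's r of log2(CPM + 20) over 63 pairs of class and library. The pairs share libraries, depth and free RNA, so r is a description. Clec4e was most like Clec4d (r = 0.955) and, outside the receptors, Prdx5 (0.949), and Clec4d was most like Sgms2 (0.960). Clec5a was nearest to Rnf149 (0.918), Clec4n to Mpeg1 (0.911) and Clec12a to Slc37a2 (0.876). Clec4a1 was nearest to Ms4a6c (0.952), Clec4a2 to Cd68 (0.936), Clec4a3 to Lgmn (0.952) and Clec10a to Hpgds (0.787). Within the list Clec4a1 and Clec4a3 stood at 0.945, Clec12a and Clec4a2 at 0.868, and Clec5a and Clec10a were the least alike at -0.193.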

How the data were processed

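Wounds of 5 mice were pooled per library, and 8 libraries of CD45+ cells were sequenced, 1 per group and day. The deposited files hold UMI counts per gene and cell, which the authors made from reads that carry molecular identifiers; the submitters' processing notes name fastp 0.20.1 and the mm9 build, and the study's methods name UMI-tools, STAR and Ensembl annotation. The capture platform is given differently by the study's methods and by the series record. Barcodes are numbered within each table, so cells shared between libraries could not be looked for. No sample column was left without a sample.

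The receptors and gene lists were chosen with earlier results of these data known. Cells with more than 200 genes and less than 20% mitochondrial counts were kept, as in the study's methods; 35158 of 38959 barcodes remained, both more than the cells the study reports. Total counts per library were 19236522 to 33842509, and intervals cover counting error only. Counts per cell were scaled to 10000, and 2000 variable genes without the receptors, 10 principal components, 30 neighbours and Leiden clustering at resolution 0.8 (scanpy 1.11.5, leidenalg 0.10.2, Python 3.11.15) gave 19 clusters. A cluster took a class name from at least 3 detected markers and a mean log2 marker fold of at least 0.25. Scrublet called 68 cells (0.193%), which was too few to be useful, so doublets were kept. A class was used in a library with at least 20 cells.

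Summed counts were tested with edgeR 4.0.16 (quasi-likelihood, TMM, filterByExpr, Benjamini-Hochberg over all genes, threshold 0.05; R 4.3.3), and standard errors were taken from the F statistic. Counts were simulated for diabetic against control neutrophil-like cells over the 9553 genes that a filter on the groups alone keeps. Fitted with the day block, 44.5% of 200 genes changed by 1 on the log2 scale were recovered, and 90.5% of those changed by 2. False calls were 6.32% and 6.70% of the calls. The simulated means held no change over the days, so recovery with the real course was not measured. Every receptor is named; of the signalling, related lectin and target lists every called gene was counted and up to 4 per comparison were named by size. Alternatives were DESeq2 1.42.0, other size factors, no filter on low counts, leaving out a day or a library, no day block, other cell filters, doublet removal and other clusterings. Sequences came from RefSeq (GRCm38.p6), in which 7 of the receptors had a promoter window, and positions from GENCODE vM21 on GRCm38; neither entered a test.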

Additional observations from a re-analysis of the deposited data

Results flagged for a closer look

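Clec10a in all cells changed sides between days. The diabetic library was 1.88 times the control library on day 1 (exact 95% interval 1.66 to 2.12, counting error only) and 0.520 times on day 5 (0.492 to 0.549), so the counting intervals lay on opposite sides of 1 with both values at least 1.5-fold away from it. The difference between the days was not tested, since each day has 1 library per group. At equal make-up of the classes the ratios were 3.05 and 0.64. The mix of clusters within a class was not evened out, and its part was not tested. Macrophage-like cells held a median over libraries of 44.2% of the Clec10a UMIs and dendritic-like cells 24.6%. In the control library of day 1 monocyte-like cells held 41.4%. Macrophage-like cells were 1.79% and 2.47% of the cells on day 1 and 5.59% and 44.5% on day 5 in diabetic and control wounds.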

How the results depend on the processing

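No paired analysis was possible because every library carries the same replicate number, other than the pairing by day that the comparison of the groups already has as its block. Of 1503 fitted receptor differences and slopes under alternatives 78 turned their sign, 0 of them among the 10 that passed as reported. For receptors that passed over the days, had an unadjusted p under 0.05 between the groups or were 2-fold apart on a day, 404 of 455 values kept their side of the threshold or stayed within the counting interval, 40 lost a call and 11 gained one. Results not called that stayed so count as kept, and all 40 losses fall on the 10 that passed. The number of receptors past the threshold between diabetic and control wounds was 0 by edgeR in each population. DESeq2 gave 1 in monocyte-like (Clec4e), 1 in macrophage-like (Clec4e) and 2 in dendritic-like cells (Clec4e and Clec12a), and edgeR without the filter on low counts gave 2 (Clec4d added), 2 (Clec10a added) and 3 (Clec4d added). Over the days DESeq2 gave 5 in all cells, adding Clec10a and Clec4a2, 1 in monocyte-like and 1 in dendritic-like cells. There it called 2846 of 13332, 278 of 9808 and 154 of 9566 genes of all. Without the filter it was 1 in monocyte-like, 1 in macrophage-like and 1 in dendritic-like cells, beside 371, 312 and 349 genes of all. Naming each cell on its own from its marker scores gave 3 in neutrophil-like (Clec5a, Clec10a and Clec4a3) and 1 in macrophage-like cells. These stood beside 695 and 182 genes of all. At resolution 1.6 it was 2 in macrophage-like cells, beside 205 genes of all.

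Leaving out a day (planned) or a library (chosen after seeing the data) moved the count from 3 in all cells to between 0 and 4, from 7 in neutrophil-like cells to between 0 and 7, and from 0 in monocyte-like and in macrophage-like cells to between 0 and 1. The highest-level class was the same for 5 of 9 receptors when each cell was named on its own, where macrophage-like cells led Clec10a and Clec4a2 and small classes led Clec4a3 and Clec4n. The share of neutrophil-like cells with a Clec4e UMI, 95.3% at 1000 UMIs, was 87.6% at 500 UMIs and 98.5% without thinning. Over all genes the calls ranged from 0 to 87 (0 as reported) between the groups in all cells, 0 to 145 (3) in neutrophil-like, 0 to 118 (0) in monocyte-like, 0 to 198 (4) in macrophage-like and 0 to 121 (1) in dendritic-like cells. Over the days they ranged from 0 to 2846 (1378) in all cells, 101 to 5088 (4338), 5 to 371 (60), 43 to 312 (112) and 12 to 349 (33) in the same order of classes. The causes were not tested. At the depth of 35 Clec12a UMIs in a day 1 class, small differences of the scarce receptors may have been missed, which was not tested. The simulated counts covered neutrophil-like cells only, whose median depth was 2536 UMIs.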
